A study of Homo sapiens with 12 samples.

Results

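The 229 genes described here are the protein-coding genes of human chromosome 19 whose symbol is ZNF followed by digits, chosen by name and position alone out of 36502 genes in the count table. RNA was measured by sequencing in 12 libraries of HT1080, a human fibrosarcoma cell line, from 2 clones with 6 libraries each. The VP16 clone carries m6A-Tracer-VP16, a fusion of the tracer with the viral VP16 activation domain, and the GFP clone carries m6A-Tracer itself, which joins GFP to a protein domain with affinity for DNA methylated at adenine. Both clones also carry Dam-LaminB1, a bacterial adenine methyltransferase joined to lamin B1, kept unstable unless Shield1 is added. Each clone was grown in 3 conditions. In tracer_Dam, cells had 3 days with doxycycline at 50 ng/ml, then 24 hours without it and with 500 nM Shield1. In tracer, the same schedule was followed without Shield1. In uninduced, cells stayed in doxycycline for 4 days, which keeps the tracer off. Each construct was in 1 clone, so clone and construct cannot be told apart, and tracer induction always came with doxycycline removal. Each of the 6 groups had 2 libraries, which the design text calls biological replicates. What was repeated between them is not stated, so p-values measure the spread between these libraries.

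Most of these genes encode KRAB zinc finger proteins. An array of C2H2 fingers reads DNA, often within a transposable element, and the KRAB domain recruits TRIM28 (KAP1), which brings SETDB1, H3K9 trimethylation and HP1 proteins. The family grew by repeated tandem duplication, so close paralogs stand side by side in clusters on chromosome 19, and many of the clusters themselves carry H3K9me3. ZNF91 is known to repress SVA elements and ZNF93 LINE elements, and ZNF274, another member, recruits SETDB1 to zinc finger genes.

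Library totals ran from 18774905 to 24827396 counts. Library titles reuse 6 index sequences, so that 1 library of each group falls in index set 1 and 1 in index set 2. The GFP_tracer and GFP_tracer_Dam libraries of set 1 stood apart from the other 10. They lay at 78.2 and 87.0 on a first principal component with 45.4% of the variance, where the other 10 lay from -41.0 to 16.2. DDIT3, a stress-induced transcription factor, was at 93.6 and 77.4 CPM (read counts scaled to library size by TMM) in these 2 libraries and from 4.74 to 8.12 CPM in the other 10. All 7 mesenchymal markers checked were at 10 CPM or more in every library. Of 8 markers of other cell types, 7 were under 1 CPM in every library, and the glial marker GFAP reached 5.69 CPM.

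The members were split into clusters by their GRCh37 start positions, with a new cluster where the next start lay over 1 Mb away. This gave 9 clusters of 5 or more members and left 9 members outside. From the start of the chromosome they were cluster 1 (2819872 to 2944969, 5 members), cluster 2 (7069471 to 9879410, 16 members), cluster 3 (11594245 to 12750912, 26 members) and cluster 4 (19779605 to 24312643, 33 members). Beyond the centromere came cluster 5 (35168544 to 35454953, 5 members), cluster 6 (36673188 to 38307940, 23 members) and cluster 7 (44029649 to 45579845, 21 members). Cluster 8 (52074551 to 54083523, 36 members) and cluster 9 (55987699 to 59000899, 55 members) lie toward the end of the long arm.

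The members were expressed broadly and at low levels. Of 229, 168 (73.4%) averaged at least 1 CPM, between the 694 of 1100 (63.1%) of the other coding genes of chromosome 19 and the 200 of 237 (84.4%) of ZNF genes on other chromosomes. At 10 CPM or more there were 75 members, and 30 averaged under 0.1 CPM. Together they took 0.215% to 0.282% of the counts of a library. Their summed level was 2774 and 2683 CPM in the 2 libraries that stood apart and from 2144 to 2446 CPM in the other 10. ZNF146, a protein made of fingers alone, was the most abundant at 167.8 CPM, or 43.5 CPM per kb of exon, and its own range was 201.2 to 227.6 CPM in the 2 libraries that stood apart and 144.0 to 170.4 CPM in the other 10. ZNF146 overlaps another annotated gene.

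Clusters differed in how much of them was expressed. In cluster 9, 48 of 55 members reached 1 CPM and the median member level was 2.83 CPM per kb. The 2 highest by CPM were ZNF787 and ZNF587, at 63.3 and 60.2 CPM. Cluster 2 was similar, with 15 of 16 members at 1 CPM, a median of 2.89 CPM per kb and ZNF317 and ZNF562 on top at 67.9 and 58.1 CPM. Cluster 7 had 18 of 21 at 1 CPM and a median of 2.78 CPM per kb, led by ZNF45 and ZNF226 at 48.0 and 42.4 CPM. In the middle stood cluster 5, with 5 of 5 members at 1 CPM, a median of 1.46 CPM per kb and ZNF302 highest at 20.3 CPM, and cluster 8, with 26 of 36 and a median of 1.09 CPM per kb, led by ZNF841 and ZNF175 at 25.3 and 20.7 CPM. ZNF175 is known to repress the HIV promoter. Cluster 6 had 17 of 23 members at 1 CPM with a median of 0.621 CPM per kb, although it holds ZNF146. Cluster 4 had 20 of 33 and a median of 0.352 CPM per kb, with ZNF91 and ZNF431 highest at 14.7 and 10.2 CPM. Cluster 3 had 13 of 26 and a median of 0.300 CPM per kb, with ZNF791 and ZNF700 at 25.6 and 18.2 CPM, and in cluster 1 none of 5 members reached 1 CPM. These are descriptions of levels in 1 cell line, with no test.

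Of the 229 members, 189 passed edgeR's filter on low counts and were tested among 17262 genes. The other 40 had 1 to 98 counts each over the 12 libraries.

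**Figure D1:**
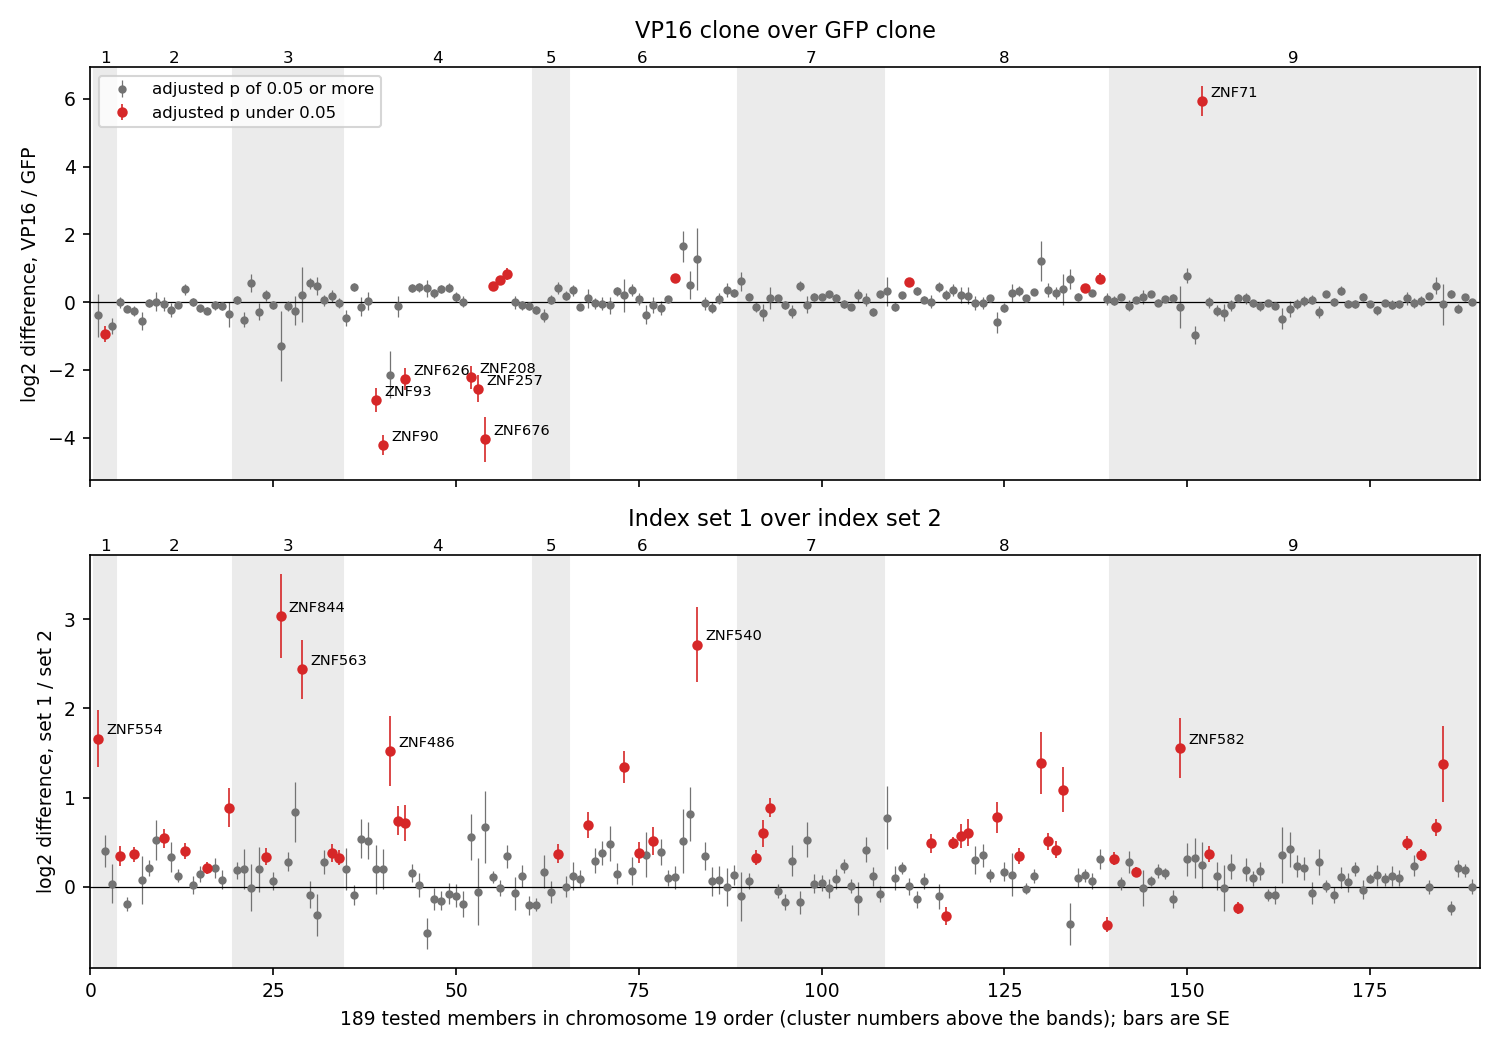
Log2 difference of each of the 189 tested members, in chromosome order and with its SE, between the clones (top, VP16 over GFP) and between the index sets (bottom, set 1 over set 2); grey bands and the numbers above mark the clusters. The largest called clone differences are 6 negative members of cluster 4 and ZNF71 in cluster 9, and ZNF486 in cluster 4, at -2.14, is not called, while the index-set differences are mostly positive in many clusters.

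The clones were compared over the 3 conditions together, 6 libraries against 6. A few neighbours in cluster 4 differed most: ZNF90, ZNF676, ZNF93, ZNF257, ZNF626 and ZNF208 were lower in the VP16 clone, with log2 differences from -4.21 to -2.22. ZNF90, ZNF676 and ZNF93 were too low in the VP16 clone to pass the filter there and passed through the GFP clone, where they were high, and ZNF71 passed through the VP16 clone. ZNF91, ZNF675 and ZNF681, at the far end of the same cluster, were higher, with log2 differences of 0.48 to 0.83. The largest difference of any member was that of ZNF71 in cluster 9, which had reads in every VP16 library and almost none in the GFP clone. Of 189 members tested, 15 differed at an edgeR adjusted p under 0.05, 8 higher (4.23%) and 7 lower (3.70%) in the VP16 clone. Of all 17262 genes 7.64% did, 2.62% higher and 5.01% lower, so the share of members called was near that of all genes. In RNA from many cells, fewer cells expressing a gene and less RNA per cell cannot be told apart. The median log2 difference was 0.04 over members and 0.00 over all genes; it was 0.149 without the 2 GFP libraries that stood apart and ran from -0.016 to 0.12 with any 1 library left out, so its sign was not stable. For each of the 15, no VP16 library overlapped the range of the GFP libraries. They were called on these same values, so this is no separate support. Over all members 16 were above in every VP16 library, against 4.59% of all genes, and 7 were below, against 6.08% of all genes.

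ZNF71 (ENSG00000197951, 57106664 to 57135540 in GRCh37), known as an endothelial zinc finger gene induced by TNF, had 3.10 CPM as the lowest, 3.89 as the median and 4.06 as the highest value in the 6 VP16 libraries, against 0, 0.064 and 0.163 CPM in the 6 GFP libraries. These were 492 counts in the VP16 clone and 9 in the GFP clone. The gene was thus near the detection limit in the GFP clone in all 3 conditions, which gave 5.94 ± 0.44 on the log2 scale (SE, edgeR adjusted p = 0.00029). Its neighbour ZNF470, 57078890 to 57094261, pointed the other way at 0.753 ± 0.257 CPM in the VP16 clone and 1.48 ± 0.354 CPM in the GFP clone (SD, n = 6 each; edgeR adjusted p = 0.058; blocked by index set, 0.021).

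Cluster 4 holds many recently duplicated primate genes, ZNF91 among them, and its members ran in stretches. From 20011722 to 20844406, ZNF93, ZNF90 and ZNF626 were lower in the VP16 clone. ZNF90 (ENSG00000213988), which overlaps 2 other annotated genes, had a lowest, median and highest value of 0.041, 0.067 and 0.109 CPM in the VP16 libraries, against 1.03, 1.38 and 1.95 CPM in the GFP libraries, or 9 counts against 194 (log2 difference -4.21 ± 0.30 SE, edgeR adjusted p = 0.00023). ZNF93 (ENSG00000184635) had 0.044, 0.150 and 0.289 CPM in the VP16 libraries, against 0.981, 1.13 and 1.48 CPM in the GFP libraries (edgeR adjusted p = 0.0031). ZNF626 had 0.266, 0.448 and 0.661 CPM in the VP16 libraries, against 1.27, 2.29 and 3.73 CPM in the GFP libraries (edgeR adjusted p = 0.0054). For all 3 genes the highest VP16 library was under the lowest GFP library. The genes were called on these same values, so this is no separate support. ZNF486, which lies among them, ran from 0 to 0.289 CPM in the VP16 clone and from 0.232 to 0.981 CPM in the GFP clone, with 16 and 72 counts; its edgeR adjusted p was 0.099, or 0.011 when blocked by index set. ZNF737, between ZNF486 and ZNF626, was at 1.06 ± 0.476 CPM in the VP16 clone and 1.14 ± 0.248 CPM in the GFP clone (SD, n = 6 each), which is -0.13 ± 0.30 on the log2 scale (SE).

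Among tested members, a second stretch of lower values began at ZNF208 (ENSG00000160321, 22148897 to 22193745) and ran through ZNF257 to ZNF676. ZNF208 and ZNF676 are known from genetic association with telomere length. ZNF208 had a lowest, median and highest value of 1.14, 2.16 and 3.53 CPM in the VP16 libraries, against 8.93, 10.3 and 13.4 CPM in the GFP libraries (log2 difference -2.22 ± 0.34 SE, edgeR adjusted p = 0.0072). ZNF257 had 0.182, 0.266 and 1.04 CPM in the VP16 libraries, against 1.34, 2.51 and 2.83 CPM in the GFP libraries (edgeR adjusted p = 0.0080). ZNF676 had 0, 0.021 and 0.142 CPM in the VP16 libraries, against 0.232, 0.736 and 0.936 CPM in the GFP libraries, or 5 counts against 94 (edgeR adjusted p = 0.0093). ZNF208 stood out from the other 2 by its level, since it was among the better expressed members of the cluster in the GFP clone. Further along, ZNF724P, a neighbour that the naming rule leaves out, was also lower in the VP16 clone (log2 difference -1.10 ± 0.21 SE, edgeR adjusted p = 0.017).

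At the next tested gene the direction changed. ZNF91 (ENSG00000167232, 23540501 to 23578269) had a lowest, median and highest value of 15.9, 16.9 and 19.5 CPM in the VP16 libraries, against 11.0, 12.2 and 13.8 CPM in the GFP libraries (log2 difference 0.48 ± 0.09 SE, edgeR adjusted p = 0.013). ZNF675, which encodes an inhibitor of TRAF6 signalling, had 10.5, 12.0 and 12.4 CPM in the VP16 libraries, against 6.39, 7.32 and 9.36 CPM in the GFP libraries (edgeR adjusted p = 0.0062). ZNF681 had 3.14, 3.67 and 5.49 CPM in the VP16 libraries, against 1.58, 2.26 and 2.80 CPM in the GFP libraries (edgeR adjusted p = 0.028). The clones did not overlap for any of these 3 genes, which were called on the same values. Between both stretches of lower values, ZNF85, ZNF708 and ZNF738 had log2 differences of 0.42, 0.39 and 0.42 that missed the threshold (edgeR adjusted p = 0.076, 0.10 and 0.081) and passed with the index set as a block (0.021, 0.035 and 0.037). ZNF100, the last tested member before ZNF208, was at 0.01 ± 0.16 (SE). Between them lies ZNF43, too low to test, at 0.090 ± 0.055 CPM in the VP16 clone and 0.238 ± 0.064 CPM in the GFP clone (SD).

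In all, cluster 4 had 3 members higher and 6 lower of 24 tested, while blocking by index set gave 7 higher and 7 lower. Over all genes the shares were 2.62% higher and 5.01% lower, or 9.03% and 11.9% with the block. Its median log2 difference was 0.02. The 9 members of the cluster that were too low to test were all lower on average in the VP16 clone, with 43 counts in the 6 VP16 libraries and 116 in the 6 GFP libraries, and 17 of the 31 such members elsewhere were lower too. Some of these directions rest on almost no reads. ZNF99 was at 0 CPM in the VP16 clone and 0.008 CPM in the GFP clone, and ZNF429 at 0.045 and 0.051 CPM. The share over all untested genes is not given, so this is no result about the cluster. Of the 8 tested genes in the region that are not members, 1 differed, ZNF724P, and 2 did with the block, the other being the pseudogene CTD-3233P19.1 (log2 difference 0.85 ± 0.24 SE, edgeR adjusted p = 0.072, or 0.026 blocked). Paralogs here share long stretches of sequence, and how reads that fit several copies were counted is not stated, so the split of reads between neighbours is uncertain.

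**Figure D2:**
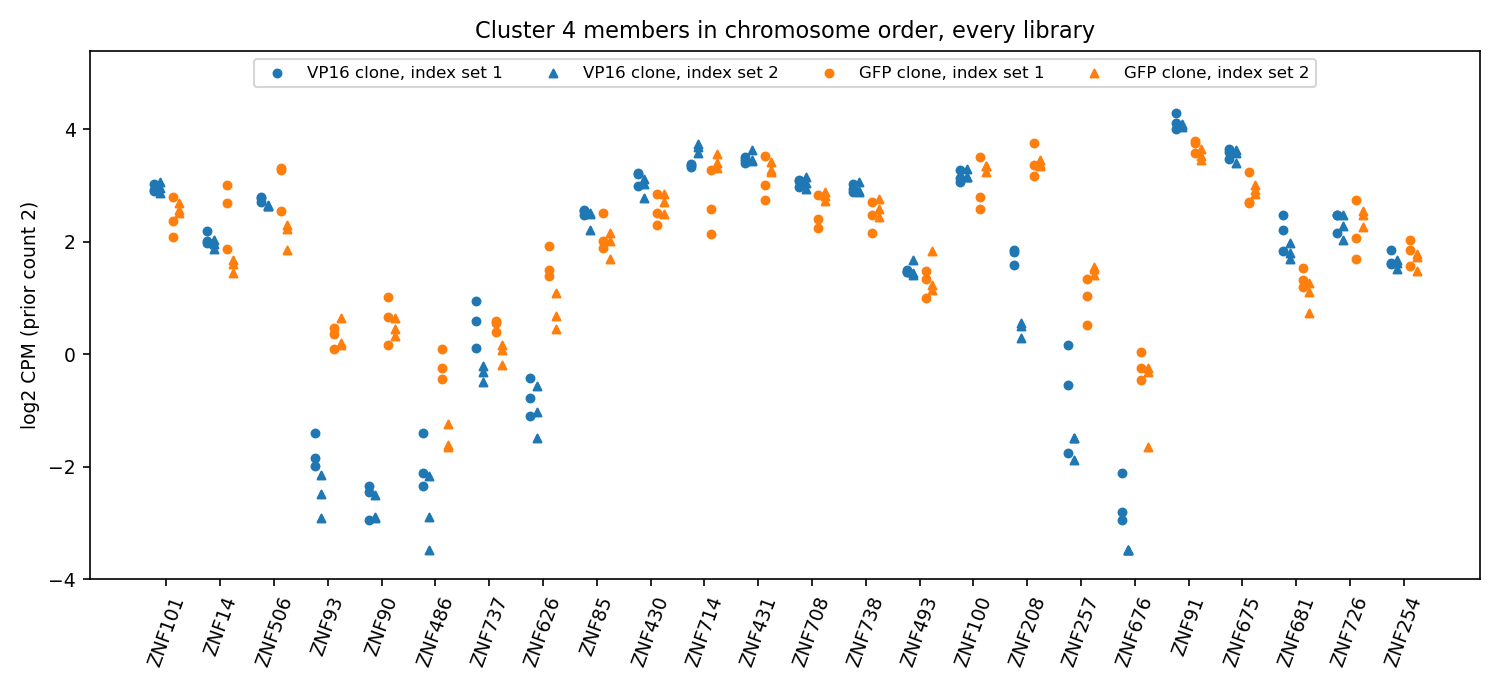
Log2 CPM (prior count 2) of the 24 tested members of cluster 4 in chromosome order, 1 point a library, VP16 clone in blue to the left and GFP clone in orange to the right, index set 1 as circles and set 2 as triangles. The VP16 points lie below all GFP points at ZNF93, ZNF90, ZNF626, ZNF208, ZNF257 and ZNF676 and above them at ZNF91, ZNF675 and ZNF681.

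Because members of cluster 4 went both ways, their promoters are shown next to that of ZNF71. Each window is the 250 bases before and 50 bases after the gene start in RefSeq (GRCh38.p14, gene strand), and capitals mark CCAAT on the printed strand. ZNF90 and ZNF208 were lower in the VP16 clone, and ZNF91, ZNF675 and ZNF71 were higher. The windows lie at chr19:20077750-20078049 on the plus strand for ZNF90, chr19:22010894-22011193 on the minus strand for ZNF208, chr19:23395422-23395721 on the minus strand for ZNF91, chr19:23687163-23687462 on the minus strand for ZNF675 and chr19:56595052-56595351 on the plus strand for ZNF71.
ZNF90: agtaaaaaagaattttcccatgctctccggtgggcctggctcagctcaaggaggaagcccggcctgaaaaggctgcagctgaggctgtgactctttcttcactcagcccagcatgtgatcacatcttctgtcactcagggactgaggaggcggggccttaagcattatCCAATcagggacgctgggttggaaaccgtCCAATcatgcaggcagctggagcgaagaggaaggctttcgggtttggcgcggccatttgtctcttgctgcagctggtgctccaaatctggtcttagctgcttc
ZNF208: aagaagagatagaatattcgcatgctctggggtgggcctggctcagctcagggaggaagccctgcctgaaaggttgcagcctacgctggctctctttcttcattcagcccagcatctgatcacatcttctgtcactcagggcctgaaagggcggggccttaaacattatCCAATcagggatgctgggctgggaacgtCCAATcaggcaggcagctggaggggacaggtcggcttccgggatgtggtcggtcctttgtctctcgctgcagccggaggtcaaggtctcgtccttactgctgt
ZNF91: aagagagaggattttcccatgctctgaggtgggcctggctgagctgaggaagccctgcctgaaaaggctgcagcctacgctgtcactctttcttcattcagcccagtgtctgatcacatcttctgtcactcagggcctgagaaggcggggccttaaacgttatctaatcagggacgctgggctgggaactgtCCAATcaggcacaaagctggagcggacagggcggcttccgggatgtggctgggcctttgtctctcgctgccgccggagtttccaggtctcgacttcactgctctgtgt
ZNF675: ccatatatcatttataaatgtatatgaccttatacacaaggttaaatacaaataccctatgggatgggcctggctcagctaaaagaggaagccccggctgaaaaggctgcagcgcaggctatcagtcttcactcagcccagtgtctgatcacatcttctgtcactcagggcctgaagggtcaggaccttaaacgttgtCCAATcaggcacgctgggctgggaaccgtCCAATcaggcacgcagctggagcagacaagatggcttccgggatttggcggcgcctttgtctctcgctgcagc
ZNF71: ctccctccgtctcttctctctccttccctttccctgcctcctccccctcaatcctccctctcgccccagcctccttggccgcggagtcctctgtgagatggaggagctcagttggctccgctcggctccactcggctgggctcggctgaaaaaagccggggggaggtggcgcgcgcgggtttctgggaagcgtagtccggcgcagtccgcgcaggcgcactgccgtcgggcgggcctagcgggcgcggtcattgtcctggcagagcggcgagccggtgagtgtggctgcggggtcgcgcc
ZNF208 and ZNF91 were 86.0% identical over an alignment of these windows, and ZNF90 was 81.9% identical to ZNF208 and 80.1% to ZNF91, although ZNF91 differed between the clones in the other direction. ZNF675 was 65.7% to 67.8% identical to these 3, and ZNF71 47.4% to 50.4% identical to the 4 windows of cluster 4. Over the 325 pairs of cluster 4 promoters the median identity was 76.2%, against 50.4% for 754 pairs of a cluster 4 promoter with a member from elsewhere. No other cluster had a median above 56.15%.

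Windows were found for 198 members among 27303 in RefSeq. CCAAT or its reverse complement ATTGG was present in 105 of the 198 (53.0%), against 35.7% of all windows, in 26 of 26 windows of cluster 4 and in 22 of 24 of cluster 3. The longer string TCCAATCAGG or its reverse complement CCTGATTGGA, picked after the members' windows had been counted, contains CCAAT. It was in 24 of 26 windows of cluster 4, 14 of 24 of cluster 3 and 3 of 5 of cluster 1, in none of the other 6 clusters, and in 0.388% of all windows. CG pairs were scarce in cluster 4, with a median of 10 per window, against 20 over members and 14 over all windows. These strings describe the windows only.

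Outside cluster 4 the called members were few. In cluster 8, ZNF577, ZNF813 and ZNF845 were higher in the VP16 clone. ZNF577 averaged 6.18 ± 0.575 CPM in the VP16 clone and 4.09 ± 0.502 CPM in the GFP clone (SD, n = 6 each; edgeR adjusted p = 0.015). ZNF813 averaged 2.51 ± 0.315 CPM in the VP16 clone and 1.56 ± 0.326 CPM in the GFP clone (edgeR adjusted p = 0.039). ZNF845 averaged 13.5 ± 1.07 CPM in the VP16 clone and 10.0 ± 0.634 CPM in the GFP clone (edgeR adjusted p = 0.030). No VP16 library overlapped the GFP range for these 3 genes, which were called on the same values. ZNF577 overlaps another annotated coding gene. In cluster 8 as a whole, 25 of 29 tested members lay above 0, the median being 0.26 (log2), and the blocked fit called 9 higher, against 50.2% above 0 and 9.03% called higher with the block over all genes. In cluster 6, ZNF569 averaged 4.72 ± 0.396 CPM in the VP16 clone and 2.92 ± 0.606 CPM in the GFP clone (edgeR adjusted p = 0.020), and in cluster 1, ZNF555 averaged 0.564 ± 0.094 CPM in the VP16 clone and 1.10 ± 0.292 CPM in the GFP clone (SD, n = 6 each; edgeR adjusted p = 0.044). ZNF569 overlaps another annotated gene. Clusters 2, 3, 5 and 7 had no member called without the block. Blocking by index set called ZNF799 in cluster 3, ZNF30 in cluster 5, ZNF230 in cluster 7 and ZNF560 in cluster 2 higher, and ZNF561 in cluster 2 lower. Neighbouring members of 1 cluster had the same sign in 108 of 173 pairs (62.4%), against 443 of 806 pairs (55.0%) of neighbours among the other coding genes of the chromosome.

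With the index set as a block, 37 members differed, 27 higher and 10 lower, against 20.9% of all genes, 9.03% higher and 11.9% lower, and all 15 members named above were among them. The block added ZNF570, ZNF583 and ZNF600 among the higher members, at 0.31 to 0.65, 3.76 to 5.16 and 0.137 to 0.761 CPM in the VP16 clone. The counts that follow, from fits with libraries left out, come without the share of all genes called. They are no result about the members. All 15 kept their direction when any 1 library was left out, but without the block 8 of them stayed called in each of the 12 fits, and the count ranged from 9, without VP16_tracer replicate 1, VP16_tracer_Dam replicate 1 or VP16_tracer replicate 2, to 23 without GFP_tracer_Dam replicate 2. With the block, all 15 stayed called in each of the 12 fits. Without the 2 GFP libraries that stood apart, 17 members were higher and 6 lower, with 14 of the 15 among them; ZNF555 was not.

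The conditions were compared within each clone, to see what the tracer and Dam-LaminB1 do to expression. For none of these comparisons did a member pass, and nor did any of the 17262 genes (0% called). ZNF71 stayed at 3.89 ± 0.00952 CPM in VP16_tracer_Dam, 3.90 ± 0.227 CPM in VP16_tracer and 3.51 ± 0.574 CPM in VP16_uninduced (SD, n = 2 each). ZNF208 was at 2.13 ± 1.13 CPM in VP16_tracer_Dam, 2.41 ± 1.46 CPM in VP16_tracer and 2.34 ± 1.69 CPM in VP16_uninduced, against 10.6 ± 0.439, 9.55 ± 0.875 and 11.9 ± 2.13 CPM in the same conditions of the GFP clone (SD, n = 2 each). With edgeR, 3 members had an unadjusted p under 0.05 for the tracer in the GFP clone, 1 in the VP16 clone, 1 for Dam-LaminB1 in the GFP clone and 0 in the VP16 clone. Over all 17262 genes these were 125, 72, 80 and 53, each under the share of 0.05 expected by chance. The fit without the block leaves the index-set difference in the spread, which can make its p-values conservative. Why so few p-values were small was not tested. A count of 0 does not show that nothing changed. DESeq2, limma-voom and the index-set block also called 0 members in each. For the difference between the clones in the response to the tracer or to Dam-LaminB1, 0 members passed as well, with 1 and 0 at an unadjusted p under 0.05.

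The members with the smallest p for the tracer in the GFP clone were ZNF578, ZNF579 and ZNF85. ZNF578 was at 0.196 and 0.139 CPM in GFP_tracer and 0.533 and 0.398 CPM in GFP_uninduced (log2 change -1.44 ± 0.48 SE, edgeR adjusted p = 1.00), and at such levels a few reads decide the value. ZNF77 in cluster 1 had the smallest p for the tracer in the VP16 clone (log2 change -0.96 ± 0.42 SE) and in the difference between the clones. For Dam-LaminB1 the smallest p belonged to ZNF233 in the GFP clone (log2 change 0.79 ± 0.35 SE) and to ZNF547 in the VP16 clone (0.53 ± 0.27 SE), with edgeR adjusted p = 1.00 for both. ZNF85 was among the 6 smallest in 4 of these comparisons. All 4 use the same GFP_tracer libraries, so they are not separate support.

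In the GFP clone, the median member log2 change with the tracer was 0.12, with 115 of 189 members positive, against 0.01 over all genes, and it was -0.08 without the 2 libraries that stood apart. ZNF genes on other chromosomes had a similar share, 130 of 213 positive, with a median of 0.07. The other coding genes of chromosome 19 had 361 of 807 positive and a median of -0.03. Cluster 6 had the highest median of the larger clusters, 0.40 with 17 of 20 members positive, made up of 0.56 in the first index set and 0.08 in the second. In the VP16 clone the median was -0.01. Of 189 members, 63 (33.3%) were higher in both libraries that stood apart than in any of the other 10, and 20 (10.6%) lower, against 22.3% and 21.3% of all genes. ZNF419, known as the source of a minor histocompatibility antigen, was at 19.5 and 18.4 CPM in these 2 libraries and from 4.97 to 8.45 CPM in the other 10. ZNF274 was at 64.8 and 60.6 CPM there and from 38.6 to 47.6 CPM in the other 10. ZNF419 overlaps another annotated gene. What set these 2 libraries apart was not tested.

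**Figure D3:**
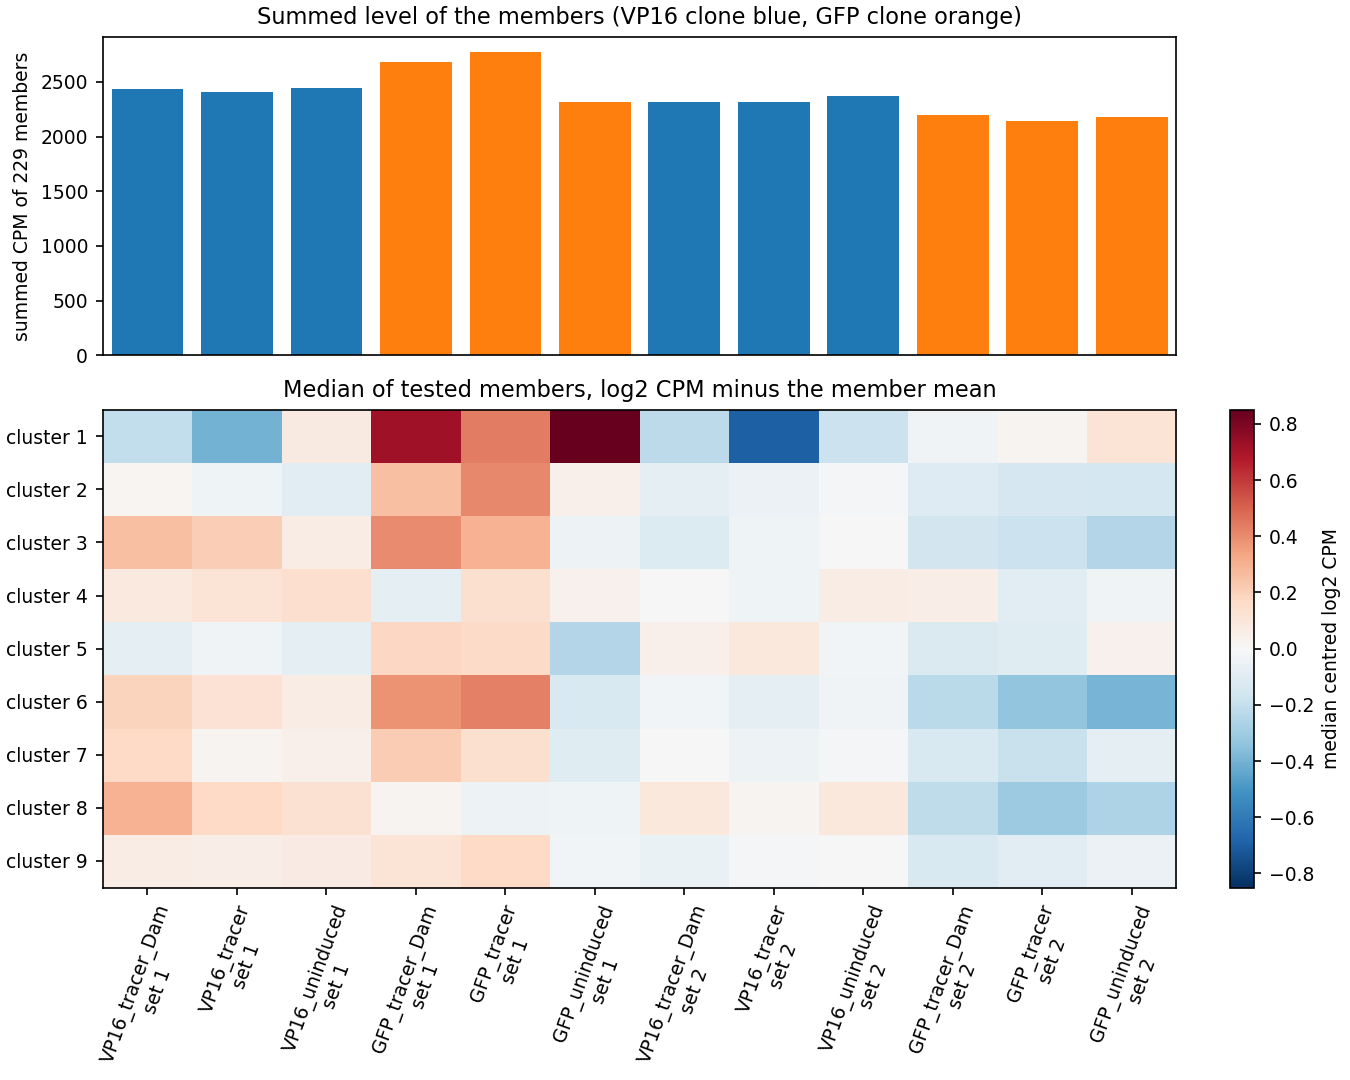
Summed CPM of the 229 members in each library (top) and, for each cluster, the median over tested members of log2 CPM minus that member's mean over the 12 libraries (bottom, red higher), with index set 1 on the left and set 2 on the right. The GFP_tracer and GFP_tracer_Dam libraries of set 1 have the 2 tallest bars, 2774 and 2683 CPM, and are red in clusters 2, 3 and 6.

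Between the index sets the members differed mostly in 1 direction. With group kept in the model, 42 of 189 members (22.2%) were higher in set 1 and 3 (1.59%) lower, against 15.6% and 12.6% of all genes, or 28.2% in both directions. The median log2 difference was 0.18 over members and 0.01 over all genes, and 149 of 189 members were positive. ZNF genes on other chromosomes did not share it, with 13 higher and 23 lower of 213 and a median of 0.01. The other coding genes of chromosome 19 had 230 higher and 42 lower of 807 and a median of 0.12. The difference between these groups of genes was not tested.

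**Figure D4:**
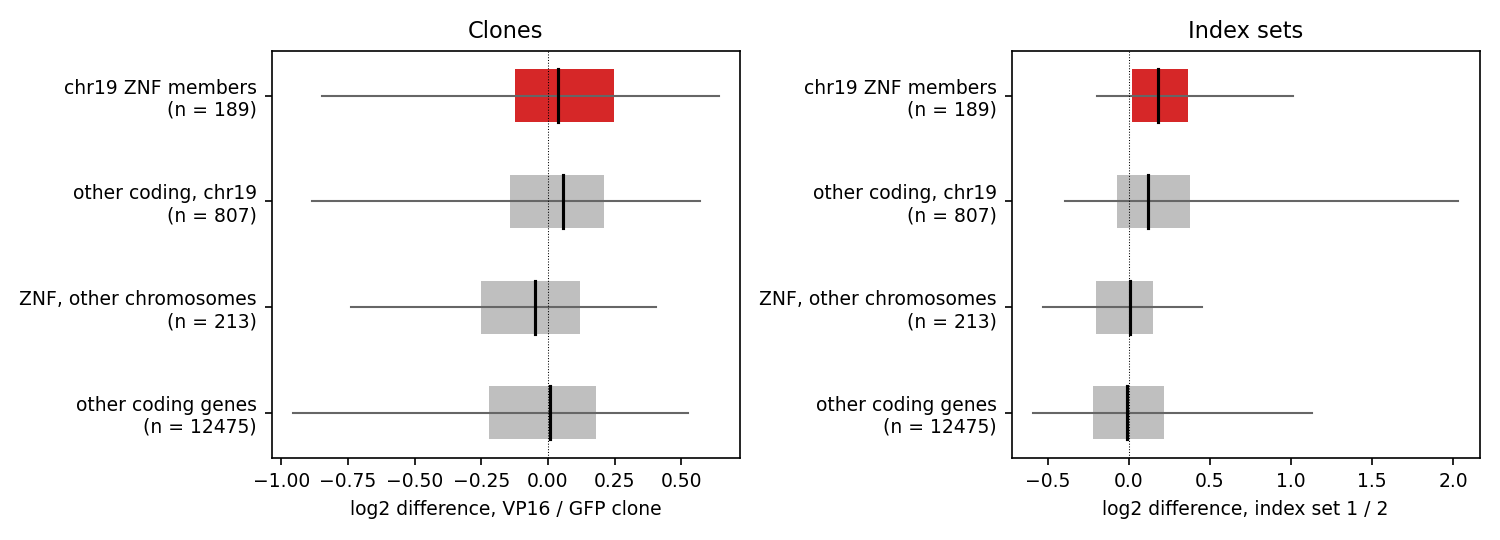
Log2 difference between the clones (left, VP16 over GFP) and between the index sets (right, set 1 over set 2) for 4 classes of gene; bars span the middle 50% of genes, lines the 5th to 95th percentile, and black ticks mark the median. Between the index sets the members have a median of 0.18 and ZNF genes on other chromosomes one of 0.01, while between the clones the 4 medians lie from -0.05 to 0.06.

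By size of the difference, ZNF844, ZNF540 and ZNF563 came first, with log2 differences of 3.04 ± 0.47, 2.72 ± 0.42 and 2.44 ± 0.33 (SE). All were low genes that passed the filter through set 1, where they were high, with 52 counts in set 1 and 6 in set 2 for ZNF844, 73 and 11 for ZNF540, and 65 and 12 for ZNF563 (edgeR adjusted p = 0.0034, 0.0035 and 0.0020). ZNF790 in cluster 6 had a lowest, median and highest value of 1.69, 2.75 and 3.09 CPM in set 1, against 0.518, 1.10 and 1.28 CPM in set 2 (edgeR adjusted p = 0.0017). ZNF404 in cluster 7 had 6.38, 6.99 and 7.55 CPM in set 1, against 2.97, 3.81 and 4.92 CPM in set 2 (log2 difference 0.89 ± 0.11 SE, edgeR adjusted p = 0.0011). For both genes every library of set 1 lay above every library of set 2, across both clones and all 3 conditions. Both were called on these same values, so this is no separate support. ZNF554, ZNF582, ZNF486, ZNF600, ZNF837, ZNF320 and ZNF846 followed, with log2 differences from 0.89 to 1.66. Of these, ZNF837 was called in 2 of the 12 fits with 1 library left out, ZNF846 in 6, ZNF600 in 7 and ZNF486 in 8. Low genes were among them too: ZNF486, ZNF582 and ZNF846 had the lowest CPM of the tested members of their clusters, and ZNF554 averaged under 1 CPM. Whether any of them also passed the filter only through set 1 was not tested.

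Of the members with a negative difference, 3 were called lower in set 1, and 11 were without the 2 libraries that stood apart. ZNF331, an imprinted gene, had a lowest, median and highest value of 11.5, 13.9 and 15.1 CPM in set 1, against 16.3, 18.3 and 19.3 CPM in set 2 (log2 difference -0.42 ± 0.09 SE, edgeR adjusted p = 0.011). ZNF614 and ZNF304 had log2 differences of -0.32 ± 0.10 and -0.24 ± 0.07 (SE; edgeR adjusted p = 0.044 and 0.034). With 1 library left out, ZNF614 was called in 0 of 12 fits and ZNF304 in 2 of 12, while ZNF331 was called in all 12. ZNF331 and ZNF304 did not overlap between the sets in any library, but they were called on these same values.

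The shift between sets was not even along the chromosome. In cluster 6 all 20 tested members were positive, with a median of 0.37, in cluster 2 15 of 16 were, with a median of 0.21, and in cluster 3 12 of 15, with a median of 0.28. In cluster 4 14 of 24 were positive, with a median of 0.12, and in cluster 7 13 of 20, with a median of 0.05. It was present in each group of libraries and larger in those that held a library that stood apart: set 1 minus set 2 gave a member median of 0.12 in VP16_tracer_Dam, 0.10 in VP16_tracer and 0.08 in VP16_uninduced, and of 0.30 in GFP_tracer_Dam, 0.37 in GFP_tracer and 0.13 in GFP_uninduced. The order of the clusters changed with the group. Cluster 2 had a median of 0.55 in GFP_tracer, 0.46 in GFP_tracer_Dam and 0.22 in GFP_uninduced, but of 0.01 to 0.08 in the VP16 groups. Cluster 4 had -0.04, -0.15 and 0.24 in the same GFP groups and 0.05 to 0.17 in the VP16 groups. Cluster 6 was above 0 in every group, from 0.13 to 0.75. In 19 members (10.1%) every library of set 1 lay above every library of set 2, against 7.35% of all genes, and in 2 (1.06%) below, against 7.22% of all genes. Counting groups, 51 members (27.0%) were higher in set 1 in all 6 groups, against 17.8% of all genes, and 8 (4.23%) lower, against 16.5% of all genes. Of the 45 members called, 44 had the same sign in all 6 groups. They were called on these same differences, so the agreement is no separate support. The share of all genes called is not given for the fits with libraries left out that follow. Without the 2 libraries that stood apart, 46 members were higher and 11 lower, the median was 0.12, and 39 of the 45 were still called. With any 1 library left out, the count was 26 to 33, with 26 without GFP_tracer replicate 1, VP16_tracer_Dam replicate 1 or GFP_tracer replicate 2 and 27 without VP16_tracer_Dam replicate 2. Of the 45, 23 were called in each of these 12 fits. Of the 40 members too low to test, 34 averaged higher in set 1, with 486 counts in set 1 and 321 in set 2. Set 1 holds both libraries that stood apart, and the share over all untested genes is not given. This count is thus no result about the members. ZNF626 was the 1 member called both between the clones and between the index sets, and 10 were with the blocked clone calls; its index-set call held in 2 of 12 fits with 1 library left out.

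Partners of the KRAB repressors were read from a list of 16 genes, TRIM28, SETDB1 and ATF7IP, the HP1 genes CBX1, CBX3 and CBX5, MORC2 and the HUSH complex genes FAM208A, MPHOSPH8 and PPHLN1, the NuRD genes CHD3, CHD4, HDAC1 and HDAC2, and DNMT1 and UHRF1. Between the clones 1 of 16 was higher, against 2.62% of all genes, the deacetylase HDAC1 (log2 difference 0.55 ± 0.11 SE, edgeR adjusted p = 0.024), and 0 were lower; 3 were higher with the index set as a block, HDAC1, HDAC2 and PPHLN1. TRIM28 itself was at 0.27 ± 0.13 on the log2 scale (SE, edgeR adjusted p = 0.23) and SETDB1 was at -0.14 ± 0.10 (SE, edgeR adjusted p = 0.46). Between the index sets, where most members were higher in set 1, none of the 16 lay above 0, the median was -0.26 (log2) and 8 were lower, against 12.6% of all genes: FAM208A (log2 difference -0.52 ± 0.08 SE), DNMT1, CHD4, CHD3, CBX5, HDAC2, ATF7IP and CBX3. TRIM28 at -0.13 ± 0.12 and SETDB1 at -0.01 ± 0.10 (SE) did not pass. The 2 GFP libraries that stood apart, both in set 1, moved with many of these values but not with all. HDAC1 was at 127 and 116 CPM in them, against 164 to 241 CPM in the other 10, and HDAC2 and PPHLN1 also had their lowest values there. FAM208A was at 97.9 and 98.1 CPM in them, against 134 to 186 CPM in the other 10, and DNMT1 at 321 and 255 CPM, against 403 to 521 CPM. CHD4 was at 542 and 440 CPM, against 643 to 764 CPM. TRIM28 was at 677 and 538 CPM, against 851 to 1068 CPM, and UHRF1 at 40.0 and 21.2 CPM, against 81.2 to 122 CPM. SETDB1 went the other way, at 38.1 and 36.8 CPM, against 25.9 to 31.2 CPM. MORC2, ATF7IP and CHD3 lay within the range of the other 10. The part of these libraries in the cofactor calls was not tested. In the comparisons of conditions 0 of 16 passed.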

How the data were processed

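RNA was sequenced from 12 HT1080 libraries, as total RNA by Trizol and TruSeq libraries per the labels' protocols. The authors deposited whole-number read counts per gene. Per the submitters' processing notes these came from TopHat 1.4.0, Bowtie 0.12.7 and HTSeq on GRCh37. Neither the HTSeq version nor its handling of overlapping genes and strand is given in the sources used here, so reads of the 59 members that overlap another gene may be shared.

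The rule for the members uses only name and position, but it and the lists were chosen with earlier results of these data known. Counts were fitted with edgeR 4.0.16 in R 4.3.3 (filterByExpr, TMM, robust quasi-likelihood, 6 group coefficients, 6 residual degrees of freedom), and p-values were adjusted over all 17262 genes by Benjamini-Hochberg at 0.05. Index sets were compared with group kept in the model. CPM are TMM-scaled, and CPM per kb used GENCODE exon lengths by gene, found for 227 members. Totals of 18774905 to 24827396 counts per library limit precision for members under 1 CPM. Fits were tested on simulated data.

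Deviations of same-numbered libraries from their group means correlated at 0.41 to 0.86 over 15 pairs of groups, so the index set, read from reused index sequences in the titles, was accepted as a pairing and fitted as a block. Replicate pairs differed by 19.6 to 135.4 in chi-square per degree of freedom, so none was a duplicate. Alternatives were DESeq2 1.42.0, limma-voom 3.58.1, RLE scaling, other filters and libraries left out. Genes were named by a fixed rule: up to 12 called members per direction, or else the 6 smallest p, up to 6 per direction under the block, the 2 highest and the lowest tested member of each cluster, and the KRAB partners. Other members mentioned, among them ZNF470, ZNF737, ZNF100, ZNF85, ZNF708 and ZNF738 between the clones and ZNF419 and ZNF274 by library, were chosen for their position or after their values were seen.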

Additional observations from a re-analysis of the deposited data

Results flagged for a closer look

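In cluster 6 the median log2 change with the tracer was -0.00 and -0.02 in the 2 index sets of the VP16 clone, against 0.56 and 0.08 in those of the GFP clone. The set medians of the VP16 clone lay just under 0 and those of the GFP clone above it, which drew attention to the cluster. In set 1 of the VP16 clone, 10 of 20 members were positive. The median fitted difference between the clones in tracer response was -0.40. The mean of the 2 set medians differed by -0.3286, VP16 minus GFP. This difference was not tested as a median, and no single member passed in the test of the difference between clones. The GFP_tracer library of set 1, which gives the value of 0.56, is 1 of the 2 libraries that stood apart, and its part in the result was not tested.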

How the results depend on the processing

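Between the clones, 15 members were called, against 37 with the index set as a replicate block, 24 with DESeq2, 23 without the 2 GFP libraries that stood apart and 61 with the block and without them. The median clone difference was 0.149 without them. Without them the median tracer change in the GFP clone was -0.078, and the median difference in tracer response between clones was 0.112, or 0.049 with the block. With 1 library left out, the clone count ran from 9 to 23 (18 to 50 with the block) and its median from -0.016 to 0.12 (0.025 to 0.091). The index-set count ran from 26 to 33 and its median from 0.134 to 0.182. Median tracer changes ran from -0.083 to 0.239 in the GFP clone (block, -0.038 to 0.183) and from -0.078 to 0.041 in the VP16 clone (block, -0.060 to 0.045). Median Dam-LaminB1 changes ran from -0.140 to 0.219 in the GFP clone (block, -0.043 to 0.141) and from -0.046 to 0.084 in the VP16 clone (block, -0.024 to 0.046). Median differences in response between clones ran from -0.207 to 0.102 for the tracer (block, -0.136 to 0.029) and from -0.215 to 0.170 for Dam-LaminB1 (block, -0.130 to 0.089). The Dam-LaminB1 difference of ZNF676 turned positive without VP16_tracer replicate 1, at 1.33, or 0.997 with the block, and was -4.66 without VP16_tracer_Dam replicate 1. Within these blocked ranges the clone count was 29 without GFP_tracer_Dam replicate 1 and 34 without GFP_tracer replicate 2, and the median tracer change in the VP16 clone was 0.0028 without VP16_tracer replicate 1 and -0.039 without replicate 2. The blocked median Dam-LaminB1 change was 0.070 in the GFP clone without GFP_tracer_Dam replicate 2, and in the VP16 clone 0.043 without VP16_tracer replicate 2 and -0.018 without VP16_tracer_Dam replicate 2. The causes were not tested. A lone library left in a group was assumed to vary like the other groups. Shares of all genes called are not given for DESeq2 or for fits with libraries left out. Those counts are no result about the members. Low counts limit the 40 members not tested and the members under 1 CPM.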
